A study of Homo sapiens with 12 samples.

Results

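The 10 genes described here belong to the tumour necrosis factor receptor (TNFR) signalling pathway. They encode 3 inhibitor of apoptosis proteins (IAPs; BIRC2, BIRC3 and XIAP), the caspase-8 regulator CFLAR, 3 TNF receptor-associated factors (TRAFs; TRAF1, TRAF2 and TRAF3), the death receptors TNFRSF10B and FAS, and CD70, a ligand of the TNF family. They were chosen by name, with earlier results of these data known, and matched by gene symbol to Ensembl identifiers. All 10 were found among the 33704 genes with at least 1 read in the deposited tables, and all 10 passed the filter on low counts in each comparison.

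Receptors of the TNFR family lie on the cell surface and recruit TRAF proteins or, in the death receptors, adaptor proteins that activate caspase-8. TRAF2 and TRAF3 hold cIAP1 (encoded by BIRC2) and cIAP2 (encoded by BIRC3) in a complex that keeps the kinase MAP3K14 low and thereby restrains the alternative NF-kB pathway, and the same IAPs promote the classical pathway downstream of TNF receptors. BIRC3, TRAF1 and CFLAR are known targets of NF-kB in many cell types. In T-cell leukaemia lines such as Jurkat, FAS is the receptor through which FAS ligand triggers cell death, and it is widely used to study that route.

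Gene expression was measured by RNA-seq in Jurkat cells, a human line established from a T-cell acute lymphoblastic leukaemia, in 12 libraries that formed 6 groups of 2. The TAL1-KD group carried a doxycycline-inducible shRNA against TAL1, a transcription factor of blood cell precursors, and received 5 µg/ml doxycycline for 72 h, and TAL1-control was the same line without doxycycline. The UTX-KD group carried an inducible shRNA against UTX (gene KDM6A), a demethylase of histone H3 lysine 27, and received 5 µg/ml doxycycline for 72 h, and UTX-control was that line without doxycycline. The J4-2uM group received 2 µM GSK-J4, an inhibitor of H3 lysine 27 demethylases of the KDM6 family, for 72 h, and J4-control received the DMSO vehicle for 72 h. The shRNA lines grew in Tet-free serum with blasticidin and G418, whereas the J4 groups grew in ordinary serum without these drugs. In these 12 libraries doxycycline was given together with a targeting shRNA, so the shRNA and doxycycline cannot be told apart, and levels that differ between the shRNA lines and the J4 cells cannot be told apart from the line and the medium. The labels do not say whether a line was 1 clone or whether replicates were separate cultures, so p-values measure the spread between these libraries, which may be technical.

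The libraries held between 55524079 and 82534711 counted reads. All 9 T-lineage markers examined were detected, and the B-lineage gene CD79A was detected at 36.5 to 84.9 CPM (normalised read counts, scaled to a common library total), the myeloid gene ITGAM at 0.179 to 1.25 CPM, and the NK-cell genes NKG7 at 2.75 to 7.8 CPM and NCAM1 at 0.598 to 3.1 CPM. The other marker genes reported, of B-lineage, myeloid, NK and erythroid cells, were at or below 0.501 CPM, and HBB had no reads. The targeted genes were not shown to be lower in the libraries labelled as knockdowns. TAL1 had 232 and 254 CPM in the libraries labelled TAL1-KD, against 254 and 257 CPM in TAL1-control (log2 fold change -0.07, 95% interval -0.27 to 0.13, edgeR adjusted p = 0.49). KDM6A had 29.3 and 29.4 CPM in the libraries labelled UTX-KD, against 30.9 and 31.3 CPM in UTX-control (log2 fold change -0.08, 95% interval -0.17 to 0.0036, edgeR adjusted p = 0.103). The directions below are therefore those of libraries with these labels. The replicates labelled TAL1-KD also differed from each other more than those of the other groups, with a standard deviation of log2 differences between replicates over genes of 0.384, against 0.231 to 0.27 in the other 5 groups.

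Promoter windows from RefSeq on GRCh38.p14, which run from 250 bases before to 50 bases after an annotated start, were used for 8 of the 10 genes, in 18 windows. CD70 and TNFRSF10B are the other members. Because BIRC3 and CFLAR are NF-kB targets in other cells, the windows were searched on both strands for the NF-kB consensus, a motif of 10 letters. Of the 8 genes, 4 had a window with a match (BIRC3, CFLAR, TRAF3 and FAS), in 4 of the 18 windows. Among all promoters in the same table, 11.3% of 35116 windows and 13.3% of 27305 genes held a match. The letters TGANTCA, a loose form of the AP-1 site with any letter in the middle, were found in windows of CFLAR and FAS. Among all promoters they were found in 7.7% of windows and 9.4% of genes. Both matches read TGAATCA, which lacks the C or G that the usual AP-1 site has in the middle. Neither overlapped an NF-kB match. A match describes the letters of the window and says nothing of binding. The stretches around the NF-kB matches are shown as a description. BIRC3, with 2 matches in 1 window, rose in each comparison. TRAF3 rose in the TAL1 comparison and fell with GSK-J4, while FAS rose and CFLAR fell in both. None of TRAF3, FAS and CFLAR was called in the UTX comparison. Without a match, BIRC2 and TRAF2 rose in the TAL1 and J4 comparisons, XIAP rose with GSK-J4 and TRAF1 fell in the TAL1 comparison. A link between matches and changes was not tested. Capitals mark the NF-kB matches, and all stretches are on the plus strand. Both BIRC3 matches are on the minus strand, so their capitals show the reverse complement of the motif.
BIRC3, chr11:102317255-102317388: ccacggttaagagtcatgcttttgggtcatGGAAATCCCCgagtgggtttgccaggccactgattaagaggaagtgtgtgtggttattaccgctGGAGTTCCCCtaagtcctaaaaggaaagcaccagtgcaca
TRAF3, chr14:102777386-102777448: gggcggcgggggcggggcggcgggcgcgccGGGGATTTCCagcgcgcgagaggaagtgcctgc
CFLAR, chr2:201118609-201118638: cgcggggggcGGGGAATTCCgcagacagga
FAS, chr10:88991264-88991293: ggtcgctggaGGGGGACCCCggttggagag
The BIRC3 matches lie 199 to 190 and 135 to 126 bases before the annotated start, and the TRAF3 match lies 33 to 24 bases before its start. The CFLAR and FAS matches lie 97 to 88 and 157 to 148 bases before a start, in stretches that also overlap exons of other transcripts.

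Most of the 10 genes rose in the libraries labelled TAL1-KD and with GSK-J4, and CD70 and BIRC3 led in both. In the libraries labelled TAL1-KD, 7 genes rose and 2 fell at an adjusted p under 0.05, while among all 16829 genes tested 26.3% were called higher and 27.9% lower. Of these rises, the number called was 2 without TAL1-control replicate 1 and 3 without TAL1-control replicate 2. In the libraries labelled UTX-KD, 3 genes rose (BIRC3, TNFRSF10B and CD70) and none fell, where 25.2% of all 16847 genes tested were higher and 25.3% lower, so the members' share of rises was near that of all genes. None was lower by DESeq2 either, and 1 (CFLAR) was lower at an unadjusted p under 0.05 in edgeR; without UTX-KD replicate 1, 5 genes rose. With GSK-J4, 7 genes rose and 2 fell, where 37.9% of all 17907 genes tested were higher and 36.9% lower. The share of genes called in either direction was 54.2%, 50.5% and 74.9% in the TAL1, UTX and J4 comparisons, so a call by itself was common in each. The median log2 fold change of the 10 genes was 0.33, 0.08 and 0.62 in the TAL1, UTX and J4 comparisons, beside -0.02, 0.0087 and 0.0084 over all genes tested. The 10 genes were chosen with earlier results of these data known, so this contrast with all genes may follow from the choice. In bulk libraries a change in the share of cells that express a gene and a change in its RNA per cell cannot be told apart. With 2 libraries a group, the groups also did not overlap for several changes that were not called. These were XIAP in the TAL1 comparison and BIRC2, TRAF2, TRAF3, FAS and CFLAR in the UTX comparison. The share of such genes among all genes was not computed, so non-overlap below only describes the libraries.

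**Figure D1:**
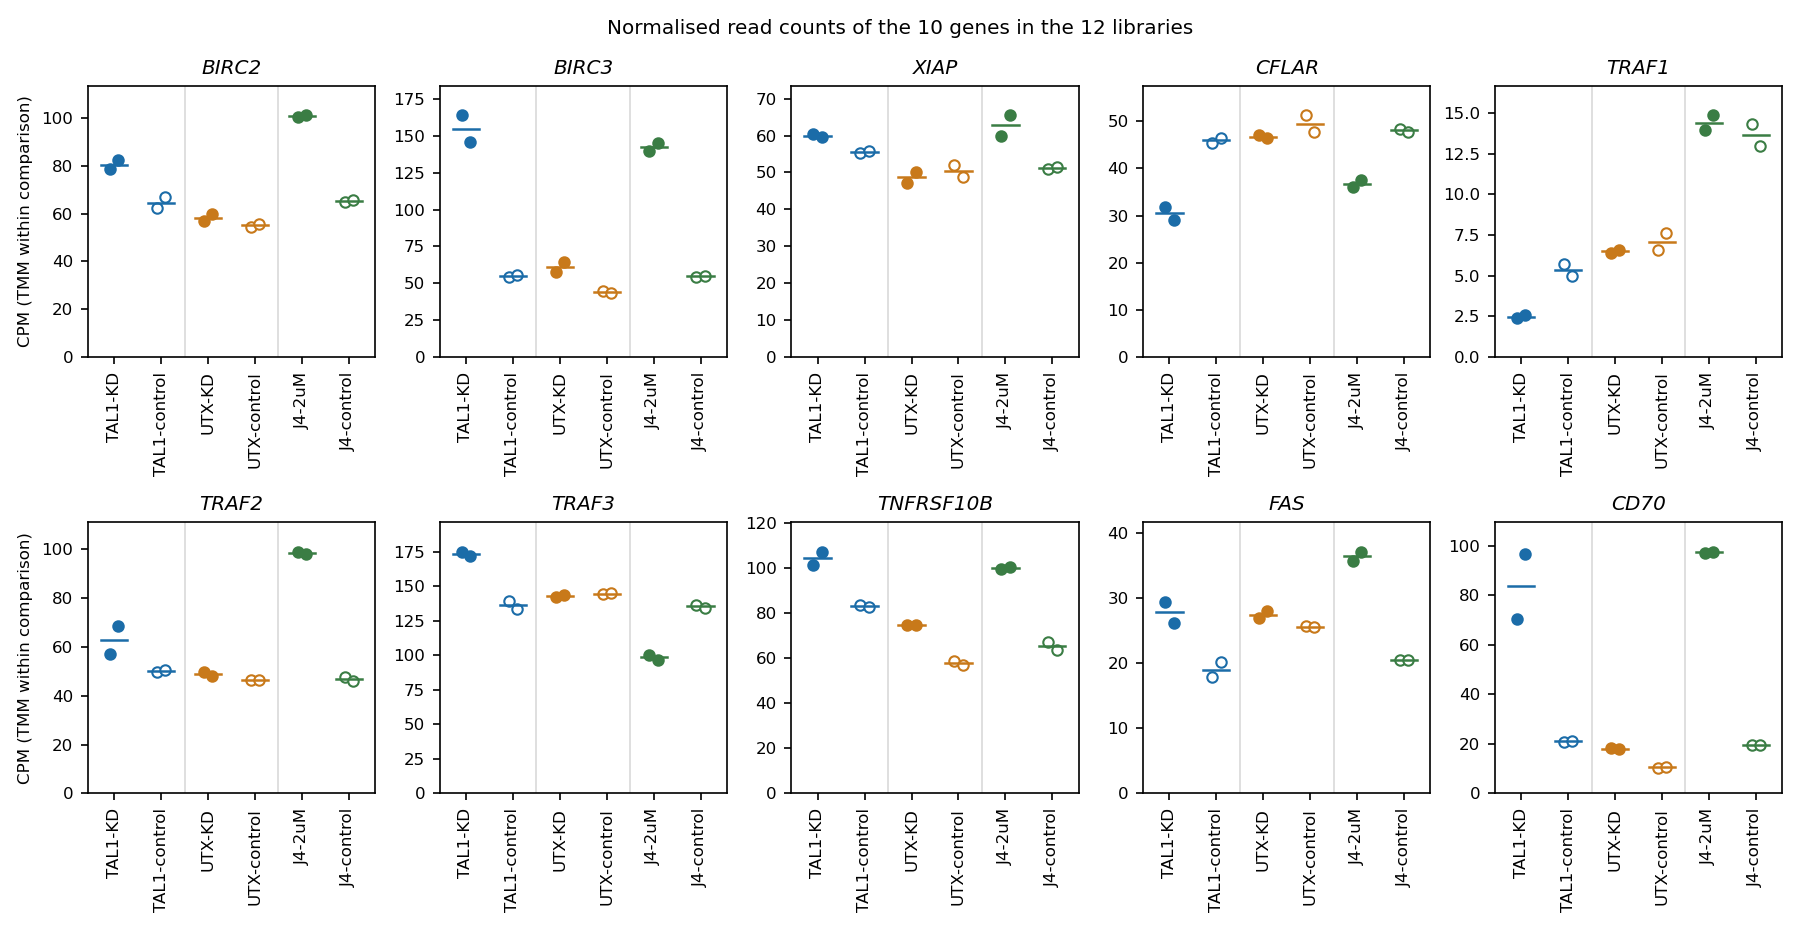
Each panel plots 1 gene, with CPM (TMM-scaled within a comparison) on the y axis from 0 and the 6 groups on the x axis; points are libraries and lines are means of 2. CD70 lies between 70.6 and 97.7 CPM in the TAL1-KD and J4-2uM libraries and at or below 21.3 CPM in all others.

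CD70 binds the costimulatory receptor CD27 on T cells and changed most of the 10 genes in each comparison. CD70 had 70.6 and 96.6 CPM in the libraries labelled TAL1-KD, against 20.9 and 21.3 CPM in TAL1-control (3.96-fold; log2 fold change 1.99, SE 0.15, edgeR adjusted p = 0.000189). It had 18.2 and 17.8 CPM in the libraries labelled UTX-KD, against 10.2 and 10.8 CPM in UTX-control (1.73-fold; log2 fold change 0.79, SE 0.06, edgeR adjusted p = 3.77e-09). With GSK-J4, CD70 had 97.2 and 97.7 CPM in J4-2uM, against 19.4 and 19.7 CPM in J4-control (4.99-fold; log2 fold change 2.32, SE 0.04, edgeR adjusted p = 5.15e-14). Groups did not overlap in any comparison, but the libraries labelled TAL1-KD lay farther apart than those of any other group. The TAL1 log2 fold change of CD70 was 2.21 without TAL1-KD replicate 1 and 1.75 without TAL1-KD replicate 2, and the call held in both.

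The receptor CD27 is given because it binds CD70. CD27 had 1.95 and 2.16 CPM in the libraries labelled UTX-KD, against 3.25 and 2.95 CPM in UTX-control (log2 fold change -0.60, SE 0.12, edgeR adjusted p = 0.000298). With GSK-J4 it had 1.34 and 1.26 CPM in J4-2uM, against 2.44 and 2.14 CPM in J4-control (log2 fold change -0.80, SE 0.14, edgeR adjusted p = 0.000166). CD27 fell in these comparisons, in which CD70 rose. In the libraries labelled TAL1-KD it had 1.33 and 1.40 CPM, against 1.23 and 1.19 CPM in TAL1-control (log2 fold change 0.17, 95% interval -0.27 to 0.61, edgeR adjusted p = 0.467).

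TNFRSF10B, a receptor for the ligand TRAIL, rose in all 3 comparisons. It had 101 and 107 CPM in the libraries labelled TAL1-KD, against 83.6 and 82.5 CPM in TAL1-control (1.26-fold; log2 fold change 0.33, SE 0.08, edgeR adjusted p = 0.00846). TNFRSF10B had 74.8 and 74.9 CPM in the libraries labelled UTX-KD, against 58.9 and 57.0 CPM in UTX-control (1.29-fold; log2 fold change 0.37, SE 0.03, edgeR adjusted p = 9.3e-08). Its GSK-J4 values were 99.6 and 100.4 CPM in J4-2uM, against 67.2 and 63.9 CPM in J4-control (1.53-fold; log2 fold change 0.61, SE 0.04, edgeR adjusted p = 4.38e-09). No library of a treated group overlapped its control group. The TAL1 call was lost without either TAL1-control replicate (edgeR adjusted p = 0.136 without replicate 1 and 0.16 without replicate 2).

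FAS, the receptor for FAS ligand, rose in the TAL1 and J4 comparisons. FAS had 29.4 and 26.2 CPM in the libraries labelled TAL1-KD, against 17.9 and 20.1 CPM in TAL1-control (1.46-fold; log2 fold change 0.55, SE 0.11, edgeR adjusted p = 0.00422). It had 35.7 and 37.1 CPM in J4-2uM, against 20.4 and 20.5 CPM in J4-control (1.78-fold; log2 fold change 0.83, SE 0.04, edgeR adjusted p = 1.75e-09). Neither pair of groups overlapped, and the TAL1 call was lost without TAL1-control replicate 1 (edgeR adjusted p = 0.0596). In the UTX comparison FAS had 26.9 and 27.9 CPM in UTX-KD, against 25.6 and 25.5 CPM in UTX-control, a change that missed the threshold (log2 fold change 0.10, 95% interval 0.0069 to 0.19, edgeR adjusted p = 0.069). In GENCODE 29 exons of FAS overlap 380 bases of ACTA2 on the opposite strand, and those of TNFRSF10B overlap 67 bases of RHOBTB2 on the opposite strand. Exons of CFLAR overlap 777 bases of CFLAR-AS1 and 1488 bases of IMPDH1P10 on the opposite strand, and 445 bases of AC007283.1 on the same strand. The libraries were stranded, while the strand setting of the counting is not given in the sources used here.

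The 3 TRAF genes each behaved differently. TRAF2, an adaptor that brings cIAP1 and cIAP2 to TNF receptors, had 99.1 and 98.1 CPM in J4-2uM, against 47.6 and 45.9 CPM in J4-control (2.11-fold; log2 fold change 1.08, SE 0.04, edgeR adjusted p = 1.77e-11). It had 57.2 and 68.7 CPM in the libraries labelled TAL1-KD, against 49.6 and 50.4 CPM in TAL1-control (1.26-fold; log2 fold change 0.33, SE 0.10, edgeR adjusted p = 0.0266). The GSK-J4 libraries lay far above their controls, whereas the TAL1-KD replicates differed from each other by more than the lower of them differed from the controls, and the TAL1 call was lost without either TAL1-control replicate (edgeR adjusted p = 0.161 without replicate 1 and 0.127 without replicate 2). TRAF2 had 49.7 and 47.9 CPM in UTX-KD, against 46.3 and 46.4 CPM in UTX-control (log2 fold change 0.08, 95% interval -0.0027 to 0.15, edgeR adjusted p = 0.101).

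TRAF3, the adaptor through which MAP3K14 is marked for degradation, moved in opposite directions in the TAL1 and J4 comparisons. It had 175 and 172 CPM in the libraries labelled TAL1-KD, against 139 and 133 CPM in TAL1-control (1.27-fold; log2 fold change 0.35, SE 0.08, edgeR adjusted p = 0.00729). In J4-2uM TRAF3 had 100.4 and 96.7 CPM, against 136 and 134 CPM in J4-control (log2 fold change -0.46, SE 0.03, edgeR adjusted p = 4.32e-08). The groups did not overlap in either comparison, and the TAL1 call was lost without either TAL1-control replicate (edgeR adjusted p = 0.111 without replicate 1 and 0.188 without replicate 2). It had 142 and 144 CPM in UTX-KD, against 145 and 145 CPM in UTX-control (log2 fold change -0.02, 95% interval -0.08 to 0.04, edgeR adjusted p = 0.64), so a change beyond 0.08 in either direction lay outside the interval.

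TRAF1, which binds TRAF2 and cIAP2 and lacks the RING domain of the other TRAFs, fell in the libraries labelled TAL1-KD and did not pass the test in the other comparisons. It had 2.39 and 2.55 CPM in TAL1-KD, against 5.71 and 4.97 CPM in TAL1-control (log2 fold change -1.11, SE 0.15, edgeR adjusted p = 0.00118). In UTX-KD it had 6.41 and 6.59 CPM, against 6.57 and 7.60 CPM in UTX-control (log2 fold change -0.11, 95% interval -0.28 to 0.06, edgeR adjusted p = 0.263). J4-2uM had 13.9 and 14.9 CPM of TRAF1, against 14.3 and 13.0 CPM in J4-control (log2 fold change 0.08, 95% interval -0.06 to 0.22, edgeR adjusted p = 0.264). The groups were apart in the TAL1 comparison and overlapped in the others, and the fall held under each of the alternatives run.

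BIRC3, which encodes cIAP2, changed most among the IAP genes. It had 164 and 146 CPM in the libraries labelled TAL1-KD, against 53.9 and 55.3 CPM in TAL1-control (2.84-fold; log2 fold change 1.51, SE 0.09, edgeR adjusted p = 0.000127). BIRC3 had 57.4 and 64.5 CPM in the libraries labelled UTX-KD, against 44.7 and 43.3 CPM in UTX-control (1.38-fold; log2 fold change 0.47, SE 0.05, edgeR adjusted p = 2.49e-07). Under GSK-J4 it had 139.8 and 145 CPM in J4-2uM, against 54.5 and 55.2 CPM in J4-control (2.59-fold; log2 fold change 1.38, SE 0.04, edgeR adjusted p = 2.05e-12). All treated libraries lay above all controls of their comparison.

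BIRC2, the neighbour of BIRC3 on chromosome 11 that encodes cIAP1, had smaller changes. It had 78.6 and 82.4 CPM in the libraries labelled TAL1-KD, against 62.2 and 66.9 CPM in TAL1-control (1.25-fold; log2 fold change 0.32, SE 0.08, edgeR adjusted p = 0.0119), a call lost without either TAL1-control replicate (edgeR adjusted p = 0.247 without replicate 1 and 0.0927 without replicate 2). With GSK-J4 it had 100.4 and 101 CPM in J4-2uM, against 64.8 and 65.7 CPM in J4-control (1.54-fold; log2 fold change 0.63, SE 0.03, edgeR adjusted p = 1.55e-09). The groups did not overlap in these comparisons, nor in the UTX comparison, where BIRC2 was not called. In UTX-KD it had 56.8 and 59.7 CPM, against 54.3 and 55.8 CPM in UTX-control (log2 fold change 0.08, 95% interval 0.0039 to 0.16, edgeR adjusted p = 0.0754).

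XIAP, which binds and inhibits caspases directly, moved least across the 6 groups. It had 60.0 and 65.6 CPM in J4-2uM, against 50.9 and 51.5 CPM in J4-control (1.23-fold; log2 fold change 0.29, SE 0.04, edgeR adjusted p = 4.18e-05). XIAP had 60.4 and 59.6 CPM in TAL1-KD, against 55.4 and 55.9 CPM in TAL1-control (log2 fold change 0.11, 95% interval -0.06 to 0.28, edgeR adjusted p = 0.243). In UTX-KD it had 47.2 and 50.2 CPM, against 52.0 and 48.7 CPM in UTX-control, where the groups overlapped (log2 fold change -0.05, 95% interval -0.14 to 0.04, edgeR adjusted p = 0.327). Its 3 annotated pseudogenes held between 0 and 15 reads a library.

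CFLAR, which encodes c-FLIP, a relative of caspase-8 that regulates its activation at death receptors, fell in the TAL1 and J4 comparisons. It had 31.9 and 29.1 CPM in the libraries labelled TAL1-KD, against 45.5 and 46.4 CPM in TAL1-control (log2 fold change -0.59, SE 0.09, edgeR adjusted p = 0.00137). In J4-2uM it had 35.9 and 37.5 CPM, against 48.4 and 47.7 CPM in J4-control (log2 fold change -0.39, SE 0.04, edgeR adjusted p = 1.01e-06). The treated libraries lay below their controls in both, and CFLAR thus fell in the comparisons in which FAS rose. TNFRSF10B rose in these and also in the UTX comparison, where CFLAR was not called. CFLAR had 47.0 and 46.5 CPM in UTX-KD, against 51.3 and 47.7 CPM in UTX-control (log2 fold change -0.09, 95% interval -0.17 to -0.00097, edgeR adjusted p = 0.0862).

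**Figure D2:**
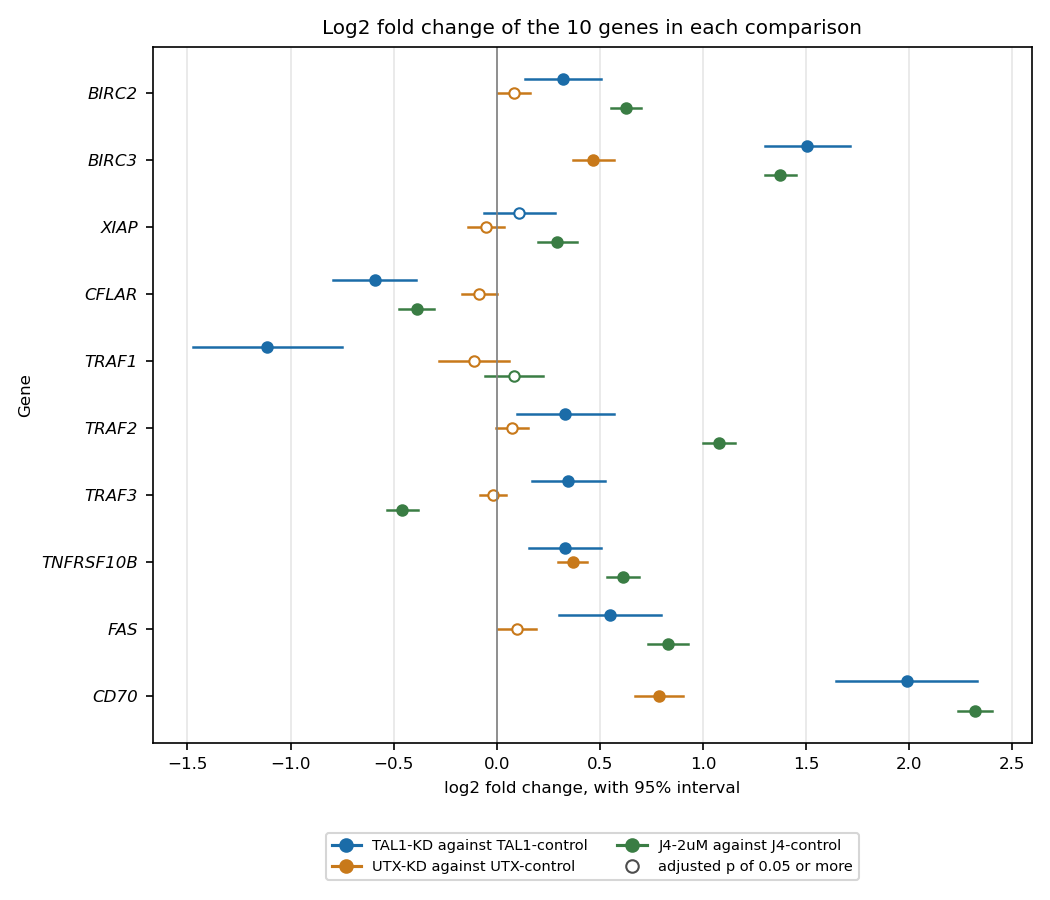
Log2 fold changes (x axis) of the 10 genes (y axis) in the TAL1, UTX and J4 comparisons, with 95% intervals; filled points had an adjusted p under 0.05 and open points did not. CD70 and BIRC3 lie to the right in all comparisons, TRAF1 is far to the left in the TAL1 comparison, and TRAF3 lies on opposite sides of 0 in the TAL1 and J4 comparisons.

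The comparisons share no library, so the differences between their log2 fold changes were tested directly as interactions. The change in the TAL1 comparison exceeded that in the UTX comparison in 5 genes and was below it in 2, where 25.0% of all genes were called in the first direction, 25.1% in the second and 50.1% in either. CD70 differed by 1.24 (SE 0.18, edgeR adjusted p = 0.000587), BIRC3 by 1.07 (SE 0.10, edgeR adjusted p = 8.84e-05), FAS by 0.48 (SE 0.11, edgeR adjusted p = 0.00549) and TRAF3 by 0.40 (SE 0.07, edgeR adjusted p = 0.00151). TRAF1 differed by -0.96 (SE 0.17, edgeR adjusted p = 0.00127) and CFLAR by -0.48 (SE 0.09, edgeR adjusted p = 0.00199). BIRC2 differed by 0.27 (SE 0.08, edgeR adjusted p = 0.0237), a call that was lost in 7 of 14 alternatives. TNFRSF10B was the gene for which these comparisons differed least, with a difference of -0.0066 and a 95% interval of -0.18 to 0.16 (edgeR adjusted p = 0.951).

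Between the TAL1 and J4 comparisons, the responses of the 3 TRAF genes differed. The TAL1 change was above the J4 change in 1 gene and below it in 4, where 26.3% and 27.6% of all genes were called in these directions and 53.9% in either. TRAF3 differed by 0.84 (SE 0.08, edgeR adjusted p = 1.17e-05), TRAF1 by -1.16 (SE 0.15, edgeR adjusted p = 8.89e-05) and TRAF2 by -0.71 (SE 0.12, edgeR adjusted p = 0.000428), and these calls held in each of the 14 alternatives. BIRC2 differed by -0.28 (edgeR adjusted p = 0.0178) and TNFRSF10B by -0.25 (edgeR adjusted p = 0.026), calls lost in 6 and 8 of 14 alternatives. Without TAL1-control replicate 2, or without any 1 of the 4 J4 libraries, 2 genes rather than 4 were below. The responses of CD70 and BIRC3 were not shown to differ, with 95% intervals of the difference of -0.68 to 0.08 for CD70 and -0.04 to 0.36 for BIRC3. CD70 passed the threshold in 2 of 14 alternatives, and BIRC3, FAS and CFLAR in 1 each. For CD70 these were the fit without the filter on low counts and the fit without TAL1-KD replicate 2. In the latter CD70 differed by -0.55 and BIRC3 by 0.24. Without TAL1-KD replicate 1 FAS differed by -0.32, against -0.25 with all libraries (edgeR adjusted p = 0.0828).

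The UTX and J4 comparisons differed in 9 of the 10 genes. The UTX change was below the J4 change in 7 genes and above it in 2, where 28.3% of all genes were called in the first direction, 30.1% in the second and 58.4% in either. The differences were -1.54 for CD70 (SE 0.07, edgeR adjusted p = 4.56e-17), -1.01 for TRAF2 (SE 0.05, edgeR adjusted p = 1.85e-15), -0.92 for BIRC3 (SE 0.06, edgeR adjusted p = 2.34e-13) and -0.74 for FAS (SE 0.06, edgeR adjusted p = 6.49e-11). BIRC2, XIAP and TNFRSF10B differed by -0.55, -0.35 and -0.25, and the differences above 0 were 0.43 for TRAF3 and 0.29 for CFLAR. All 9 calls held in each of the 14 alternatives. TRAF1 did not pass the test (difference -0.20, 95% interval -0.42 to 0.01, edgeR adjusted p = 0.0971).

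**Figure D3:**
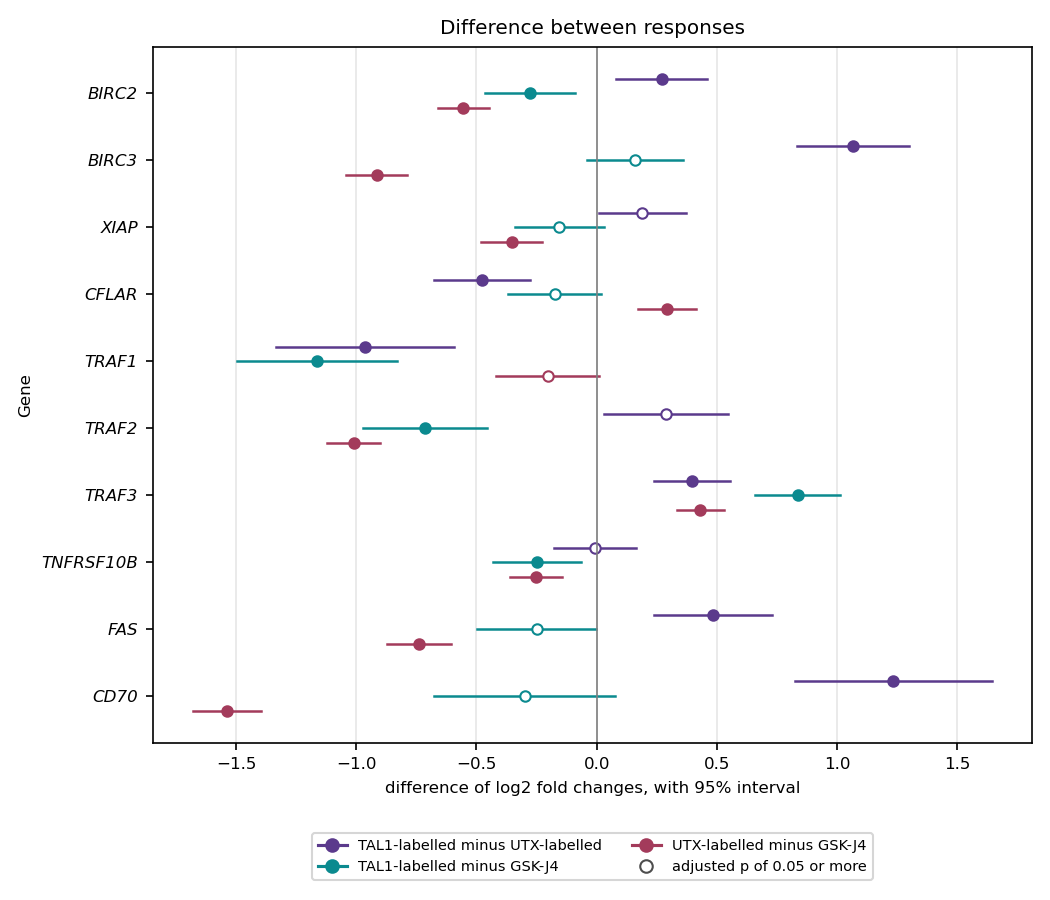
Differences between log2 fold changes (x axis) for the 10 genes (y axis), TAL1 minus UTX, TAL1 minus J4 and UTX minus J4, with 95% intervals; open points had an adjusted p of 0.05 or more. The interval of TNFRSF10B for TAL1 minus UTX is centred near 0 (-0.18 to 0.16), and CD70 shows the widest spread of values, 1.24 to -1.54.

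Levels across the 6 groups, scaled by TMM over all 12 libraries, are given as a description. CD70 averaged 91.1 CPM in TAL1-KD and 89.6 CPM in J4-2uM, whose ranges overlapped, then 22.6 CPM in TAL1-control, 18.2 CPM in UTX-KD, 18.0 CPM in J4-control and 10.4 CPM in UTX-control, and of these the ranges of UTX-KD and J4-control overlapped. The CD70 level labelled UTX-KD was thus no higher than that of the TAL1-control line, and the UTX-control line was the lowest. BIRC3 averaged 169 CPM in TAL1-KD, 131 CPM in J4-2uM, 61.7 CPM in UTX-KD, 58.5 CPM in TAL1-control, 50.7 CPM in J4-control and 43.8 CPM in UTX-control, with overlapping ranges in UTX-KD and TAL1-control. TRAF1 averaged 13.2 and 12.6 CPM in J4-2uM and J4-control with overlapping ranges, 6.58 and 7.06 CPM in UTX-KD and UTX-control, also overlapping, and 2.69 and 5.72 CPM in TAL1-KD and TAL1-control. On the log2 CPM scale the highest and the lowest group means lay 3.10 apart for CD70, 2.29 for TRAF1, and 1.94 for BIRC3, the widest of the 10 genes, and 0.47 for XIAP, the narrowest.

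Per kilobase of transcript (RPKM), the 10 genes also ranked differently. CD70 had the highest level of the 10 in TAL1-KD and J4-2uM, at 99.8 and 98.1 RPKM, and 24.7 and 19.7 RPKM in TAL1-control and J4-control. TRAF2 followed in J4-2uM at 40.0 RPKM, against 19.1 RPKM in J4-control, and BIRC3 followed in TAL1-KD at 32.5 RPKM, against 11.3 RPKM in TAL1-control. In UTX-KD TRAF2 was highest at 21.8 RPKM, against 20.4 RPKM in UTX-control. TRAF1 was the lowest of the 10 in every group, between 0.425 and 2.09 RPKM, and CFLAR was next, between 2.26 and 3.37 RPKM. These ranks depend on the transcript chosen, which was 14672 bases long for CFLAR and 913 bases long for CD70. Which transcripts the cells expressed was not examined.

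The genes whose log2 CPM followed these levels most closely over the 12 libraries, among 13811 genes, are named as a description, since all points share the same 6 groups. For CD70 they were ULBP2 (Pearson's r = 0.995), SAT2 (0.994) and TNFSF9 (0.993), the last a ligand of the same family. For BIRC3 they were PIGG (0.994), ARMCX3 (0.993) and MAP3K1 (0.989). For TRAF1 they were MX2 (0.991), ENSG00000165388 (0.984) and MCIDAS (0.983).

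The rest of the pathway was followed in 6 lists with 76 genes, of which those named had the smallest adjusted p of edgeR's quasi-likelihood test in their list in at least 1 comparison, and their changes are given for the comparisons in which they passed the threshold. BIRC7, FASLG, CD40, LTBR, TNFRSF1B, TNFRSF9 and TNFRSF18 did not pass the filter on low counts in any comparison, nor did TNFSF14 in the TAL1 and UTX comparisons. Among all genes tested, 26.3%, 25.2% and 37.9% were called higher in the TAL1, UTX and J4 comparisons. In the same order, 27.9%, 25.3% and 36.9% were called lower. The counts of each of the 6 lists stand beside these shares, and the lists too were chosen with earlier results of these data known. The NF-kB list, with 14 of 15 genes tested, had 9 genes higher and none lower in the TAL1 comparison (none lower by edgeR at an unadjusted p under 0.05 or by DESeq2), 8 higher and 1 lower in the UTX comparison, and 12 higher and 2 lower in the J4 comparison, with median log2 fold changes of 0.91, 0.13 and 0.60. RELB, a subunit of the alternative pathway, rose by 3.41, 1.90 and 3.46 (log2) in the TAL1, UTX and J4 comparisons. TNFAIP3, an inhibitor of NF-kB, rose by 2.08, 0.88 and 2.12 in the same comparisons, and NFKBIA, the classical inhibitor, rose by 2.09, 0.78 and 1.24. NFKB2, the partner of RELB, rose by 1.66, 0.48 and 1.86. The kinase gene MAP3K7 fell by 0.10 in the UTX comparison and by 0.35 with GSK-J4, and IKBKB rose by 0.12 in the UTX comparison and fell by 0.15 with GSK-J4.

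Costimulatory receptors and ligands other than CD70 were split. Of 14 genes, 8 were tested in the TAL1 and UTX comparisons and 9 in the J4 comparison, and 3, 4 and 3 rose while 2, 3 and 5 fell. The ligand genes TNFSF9 and LTB and the receptor gene TNFRSF14 rose in all 3 comparisons, by 1.76, 0.68 and 1.79 (log2) for TNFSF9, 1.69, 1.05 and 3.05 for LTB and 0.82, 1.02 and 1.32 for TNFRSF14. The receptor genes TNFRSF8 and TNFRSF4 fell by 0.69 and 0.43 in the UTX comparison and by 1.78 and 1.67 with GSK-J4. CD40LG, the ligand of CD40, fell by 0.43 in the TAL1 comparison and by 1.85 with GSK-J4 and rose by 0.25 in the UTX comparison. TNFSF4 fell by 0.90 in the TAL1 comparison and by 0.72 with GSK-J4.

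Among the other death receptors and their ligands, with 9 of 10 genes tested, 1, 3 and 4 rose and 2, 2 and 0 fell in the TAL1, UTX and J4 comparisons, and none was lower with GSK-J4 by edgeR at an unadjusted p under 0.05 or by DESeq2. TNFRSF10A, the second TRAIL receptor with a death domain, fell by 0.67 and 0.49 (log2) in the TAL1 and UTX comparisons, in which TNFRSF10B rose. With GSK-J4 both genes rose, TNFRSF10A by 0.82. TNFSF10, which encodes TRAIL, fell by 0.85 in the TAL1 comparison, and the death receptor gene TNFRSF21 rose by 0.61 there. LTA, encoding lymphotoxin alpha, rose by 0.30 in the UTX comparison and by 1.41 with GSK-J4. TNFRSF10D, a decoy receptor, had 5 and 6 reads in UTX-KD, against 40 and 40 reads in UTX-control (log2 fold change -2.89, SE 0.37, edgeR adjusted p = 4.31e-06).

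Other TRAF genes and TRAF partners, all 10 tested, had 3, 6 and 5 higher and 3, 1 and 5 lower in the TAL1, UTX and J4 comparisons. TRAF4 rose by 2.18, 0.54 and 1.63 (log2), larger values than those of TRAF1, TRAF2 and TRAF3 in the same comparisons. TRAF3IP3 fell by 1.07, 0.11 and 0.52 in the 3 comparisons, and TRAF5 fell by 0.69 in the TAL1 comparison and by 0.35 with GSK-J4 and rose by 0.12 in the UTX comparison. TIFA, an adaptor that binds TRAF6, rose by 0.31 in the UTX comparison and by 0.78 with GSK-J4.

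Of the other IAP genes and IAP antagonists, 7 of 8 were tested, and 3, 2 and 3 rose while 4, 1 and 1 fell. BIRC5, encoding survivin, a protein of cell division, fell by 0.68 (log2) in the TAL1 comparison and by 0.71 in the UTX comparison. XAF1, an antagonist of XIAP, fell by 0.65 in the TAL1 comparison and rose by 0.67 in the UTX comparison and by 0.90 with GSK-J4. SEPTIN4, whose ARTS isoform antagonises XIAP, fell by 1.03 in the TAL1 comparison and rose by 2.07 with GSK-J4. DIABLO and HTRA2, mitochondrial antagonists of IAPs, rose by 0.68 and 0.30 in the TAL1 comparison, and HTRA2 rose by 0.26 with GSK-J4.

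Among 19 genes of death-signalling complexes and caspases, all tested, 6, 9 and 7 rose and 2, 5 and 8 fell in the TAL1, UTX and J4 comparisons, with median log2 fold changes of 0.07, 0.04 and -0.01. Of all genes tested, 54.2%, 50.5% and 74.9% were called in either direction in these comparisons. RIPK1, a kinase recruited to TNF receptor 1, fell by 1.09 (log2) in the TAL1 comparison and by 0.33 with GSK-J4. The libraries labelled TAL1-KD lay far apart for RIPK1, at 12.5 and 22.3 CPM, against 36.2 and 37.9 CPM in TAL1-control. BID, a substrate of caspase-8, rose by 0.50 in the TAL1 comparison and fell by 0.44 with GSK-J4. RBCK1, a subunit of the linear ubiquitin ligase, and CYLD, a deubiquitinase, rose by 0.45 and 0.26 in the TAL1 comparison, by 0.58 and 0.47 in the UTX comparison and by 1.15 and 0.80 with GSK-J4. CASP8, the initiator caspase of death receptors, and CASP6 fell by 0.52 and 0.92 with GSK-J4. MLKL, the effector of necroptosis, rose by 0.49 in the TAL1 comparison and fell by 0.34 in the UTX comparison and by 0.80 with GSK-J4.

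**Figure D4:**
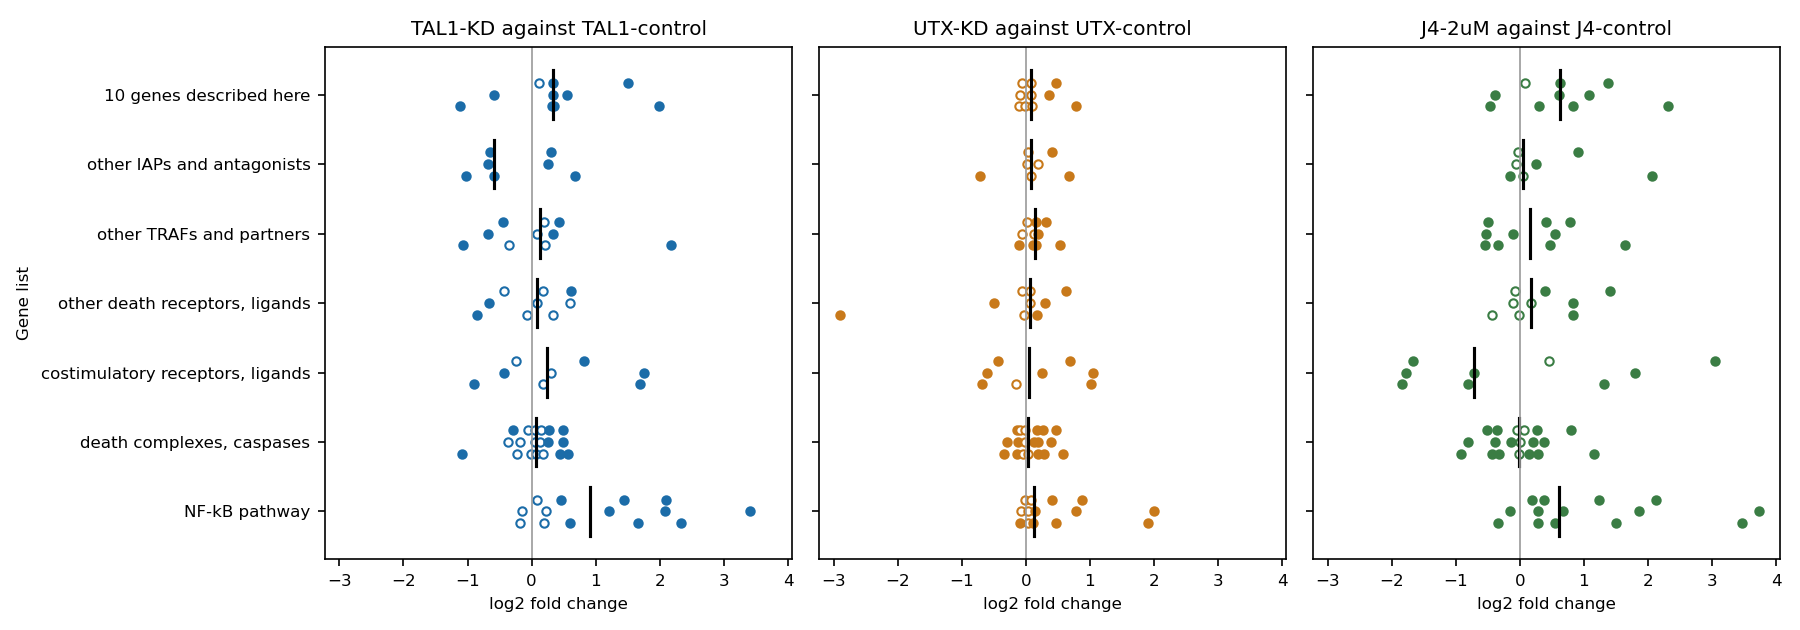
Log2 fold changes (x axis) of the 10 genes and of the genes of 6 pathway lists (y axis) in the TAL1, UTX and J4 comparisons; each point is a gene, filled at an adjusted p under 0.05, and the bars mark medians. The medians of the 10 genes are 0.33, 0.08 and 0.62, and those of the NF-kB list are 0.91, 0.13 and 0.60.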

How the data were processed

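Stranded mRNA libraries of Jurkat cells were sequenced. The build was hg19 and the tools were TopHat2 2.0.12, HTSeq 0.6.1p1 and an unstated version of DESeq2, per the submitters' processing notes, and annotation, strand setting and handling of multi-position reads are not given in the sources used here. The authors deposited 1 table per comparison with unnormalised read counts per Ensembl gene for 4 libraries. The normalised mean signal, log2 fold changes, test statistics (score) and p-values deposited by the authors came with them and are not printed.

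From the counts, genes were filtered with filterByExpr, scaled by TMM and tested with the quasi-likelihood test of edgeR 4.0.16 in R 4.3.3 (two-sided, Benjamini-Hochberg over all genes, threshold 0.05), each comparison alone on its 4 libraries. Differences between comparisons were interactions fitted on 8 libraries. Standard errors are the log2 fold change over the root of the F statistic. CPM beside a test are scaled within the comparison. RPKM used the longest principal transcript in GENCODE 29. Log2 CPM for likeness used a prior count of 2, over genes with a mean of at least 50 normalised counts.

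All 10 members were named in every comparison, and of each pathway list up to 3 called genes per direction with the smallest adjusted p, in each comparison where they were called. For the 3 members with the widest range of group means, the 3 most similar genes were named. The members and lists were chosen with earlier results of these data known. Symbols came from a table of gene IDs, in which IKBKG had no match in the files. No gene coordinates of hg19 are given. Alternatives were another threshold, filter, scaling and tool (DESeq2 1.42.0), a replicate block, each replicate left out, and 1 fit over 12 libraries. Of the genes that this rule names and of the marker genes, 1 each is not reported here.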

Additional observations from a re-analysis of the deposited data

Results flagged for a closer look

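The responses of the 10 genes differed between comparisons by the interaction test of edgeR in 21 of 30 tests, which marked them for a closer look (values are differences of log2 fold changes). Such calls were common, since 50.1%, 53.9% and 58.4% of all genes were called in the TAL1 minus UTX, TAL1 minus J4 and UTX minus J4 tests. Between TAL1 and UTX these were 0.27 for BIRC2, 1.07 for BIRC3, -0.48 for CFLAR, -0.96 for TRAF1, 0.40 for TRAF3, 0.48 for FAS and 1.24 for CD70. Between TAL1 and J4 they were -0.28 for BIRC2, -1.16 for TRAF1, -0.71 for TRAF2, 0.84 for TRAF3 and -0.25 for TNFRSF10B. Between UTX and J4 they were -0.55 for BIRC2, -0.92 for BIRC3, -0.35 for XIAP, 0.29 for CFLAR, -1.01 for TRAF2, 0.43 for TRAF3, -0.25 for TNFRSF10B, -0.74 for FAS and -1.54 for CD70. Line, medium, selection drugs and treatment changed together between the shRNA and GSK-J4 comparisons and cannot be told apart. With groups of 2, single libraries were not examined for outliers.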

How the results depend on the processing

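Of the genes called, BIRC3, CFLAR, TRAF1 and CD70 in the TAL1 comparison, all 3 in the UTX comparison and all 9 in the J4 comparison kept their direction and call in each alternative run. At an adjusted p under 0.01, the TAL1 comparison had 2872 genes higher and 3046 lower, TAL1 minus UTX had 2786 genes lower, and TAL1 minus J4 had 2 members lower. DESeq2's Wald test called 2782 genes higher in the UTX comparison, and 1 fit over 12 libraries called 2446 lower there. With 1 replicate left out, the TAL1 comparison had 2431 to 5869 genes higher, 3094 to 6083 lower and 2 to 7 members higher. The UTX comparison then had 3 to 5 members higher and 0 to 1 lower, and TAL1 minus J4 had 1 to 2 members higher and 2 to 6 lower. The lone library of a group was then assumed to vary like the others. The causes of these shifts were not tested.

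Values that changed sign were near 0 and none was called with all libraries: with 1 replicate left out, TAL1 in the TAL1 comparison ranged from -0.14 to 0.0037, XIAP in the UTX comparison from -0.10 to 0.00074, TRAF1 in the J4 comparison from -0.0018 to 0.14 and TNFRSF10B (TAL1 minus UTX) from -0.048 to 0.0397, and TRAF3 in the UTX comparison was 0.0039 in 1 fit over 12 libraries.

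The replicate numbers were not shown to pair libraries: the replicate differences of the groups compared correlated at 0.0673, 0.0383 and -0.0291 over genes in the TAL1, UTX and J4 comparisons. With the replicate block, 4631 genes were higher and 5130 lower in TAL1, 4165 and 4179 in UTX, and 6829 and 6659 in J4. The members' calls were unchanged under the block except that TRAF2 was gained in TAL1 minus UTX (0.28, edgeR adjusted p = 0.0485). DESeq2 size factors in place of TMM moved the 60 group levels of the members by -0.967% to 2.33%.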
